A study of Mus musculus with 4 samples.

Results

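The histone deacetylase (HDAC) genes described here are Hdac3 to Hdac11, the mouse Hdac family without Hdac1 and Hdac2. They were taken as every probe set that the array platform annotation assigns to 1 of these 9 symbols and to no other gene, which gave 15 probe sets for the 9 genes. The array held 18193 genes with such a probe set, and 45037 probe sets in all without the control probe sets. By sequence class these are Hdac3 and Hdac8 of class I, Hdac4, Hdac5, Hdac7 and Hdac9 of class IIa, Hdac6 and Hdac10 of class IIb, and Hdac11 of class IV. None belongs to class III, the sirtuins, which are a separate family. RNA came from J1 mouse embryonic stem cells carrying an inducible RNAi construct against Chd4, in the 1 line Chd4i-1. In the Chd4 RNAi group (n = 2 arrays) the construct was switched on for 3 days with doxycycline at 5 ng/ml. The control group (n = 2) was the same line without doxycycline. Both were cultured on gelatin with serum and leukaemia inhibitory factor. The series text names the arrays of a group biological duplicates. A doxycycline-treated line without the construct was not analysed here, so doxycycline, the RNAi and the loss of Chd4 cannot be told apart.

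HDACs remove acetyl groups from lysines. Hdac3 is the catalytic subunit of the NCoR and SMRT corepressor complexes, and Hdac8 deacetylates the cohesin subunit Smc3. Class IIa enzymes have weak activity of their own, bind MEF2 transcription factors, and leave the nucleus bound to 14-3-3 proteins once kinases have phosphorylated them. Hdac6 is a cytoplasmic tubulin deacetylase, Hdac10 deacetylates polyamines, and Hdac11 removes long fatty acyl groups. Chd4 is the remodelling ATPase of NuRD, a complex whose deacetylases are Hdac1 and Hdac2 rather than the members described here.

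The deposited values are MAS5 signals, on which all arrays shared 1 scale (trimmed mean 496 to 497). Chd4 was lower in Chd4 RNAi cells at each of its 3 probe sets, at 48.5% to 65.0% of control. The 8 embryonic stem cell markers, Pou5f1, Sox2 and Nanog among them, all lay above the median probe set. Their summed signal was 112170 to 114730 on the Chd4 RNAi arrays and 112890 to 116100 on the control arrays. Of these 8, Esrrb (adjusted p = 0.00722) and Klf4 (adjusted p = 0.0106) were called lower and Dppa5a (adjusted p = 0.0161) higher. At an unadjusted p under 0.05 in limma 1 of the 8 was higher and 4 lower, against 18.7% and 14.9% of all genes tested. Pou5f1 read lower on both Chd4 RNAi arrays than on both controls (log2 difference -0.17, adjusted p = 0.086). Sox2 and Nanog were at 0.072 (adjusted p = 0.360) and 0.0056 (adjusted p = 0.956). Of 8 fibroblast markers, which would mark feeder cells, 6 fell below the filter for testing, Col1a1 and Col3a1 among them. Among these dim markers Postn and Lum read lower on both Chd4 RNAi arrays than on both controls. The groups overlapped at Col1a1, Col3a1, S100a4 and Dcn. The sum of the fibroblast markers was 693 to 792 on the Chd4 RNAi arrays and 365 to 424 on the control arrays, most of it from Thy1, called higher at 3.06-fold, and Col1a2 was the other gene tested. Trophectoderm markers summed to 1643 to 1677 on the Chd4 RNAi arrays and 826 to 880 on the control arrays, most of it from Krt18. Krt18 and Krt7 were called higher, and Eomes, the other gene tested, was at a log2 difference of -0.23 (adjusted p = 0.592). The remaining 3 of 6 were below the filter: on both Chd4 RNAi arrays Elf5 read lower than on both controls, and Cdx2 and Gata3 higher. Primitive endoderm markers summed to 434 to 447 on the Chd4 RNAi arrays and 347 to 365 on the control arrays, with 0 of 5 tested genes called by limma and 1 at an unadjusted p under 0.05. The markers did not move together. Pdgfra, Sox7 and Dab2 were at log2 differences of 1.18, 0.96 and 0.31, and Gata4 and Gata6 at -0.0074 and -0.011. Sox17, below the filter, read lower on both Chd4 RNAi arrays than on both controls. Neural ectoderm markers summed to 1737 to 1739 on the Chd4 RNAi arrays and 1600 to 1658 on the control arrays. Tubb3, called higher, made up most of that sum, and the others did not follow it: the median log2 difference of the 3 tested was -0.22, Pax6 was at -0.42 (adjusted p = 0.424) and Nes at -0.22 (adjusted p = 0.688). Sox1, below the filter, had signals of 21.3 and 5.40 on the Chd4 RNAi arrays and 129 and 183 on the control arrays. The part of these other markers in the results below was not tested.

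Among the HDAC genes, the 1 that passed the test was Hdac11, at 1 of its 2 probe sets. The other 11 tested probe sets, of Hdac3, Hdac4, Hdac5, Hdac6, Hdac7, Hdac8, Hdac10 and again Hdac11, had log2 differences between -0.33 and 0.41 and did not pass (adjusted p from 0.282 to 0.958 in limma). Hdac9 and a second Hdac10 probe set were too dim to be tested. All 3 of these dim probe sets read higher on both Chd4 RNAi arrays than on both controls. Every one of their signals was under the median of all probe sets. The same order held for 27.5% of tested probe sets, and its share among probe sets too dim to test was not computed. A limma fit over all probe sets called none of the 3 (adjusted p from 0.165 to 0.604).

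A difference is the mean log2 signal in Chd4 RNAi cells minus that in controls. It was tested in limma over all 27022 probe sets with a mean signal of 42.4 or more, the top 60%, and called at a Benjamini-Hochberg adjusted p under 0.05. Of the 15 HDAC probe sets 12 reached this filter, covering 8 of the 9 genes. The test called 1 of the 12 (8.33%) higher, where it called 7.46% of all tested probe sets higher. It called 0 of the 12 lower, where the figure for all tested probe sets was 6.77%. At an unadjusted p under 0.05 the same Hdac11 probe set passed as higher (8.33%) and 0 of the 12 as lower, against 14.5% higher and 13.8% lower of all tested probe sets. Both Chd4 RNAi arrays lay above both controls at 3 of the 12 (25.0%), against 27.5% of all tested probe sets. Both lay below them at 1 (8.33%), against 28.4%. The median absolute log2 difference was 0.13 over the 12 and 0.22 over all tested probe sets. The share called higher after adjustment was near the background, and with 12 probe sets none of these shares is read as particular to the HDAC genes.

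**Figure D1:**
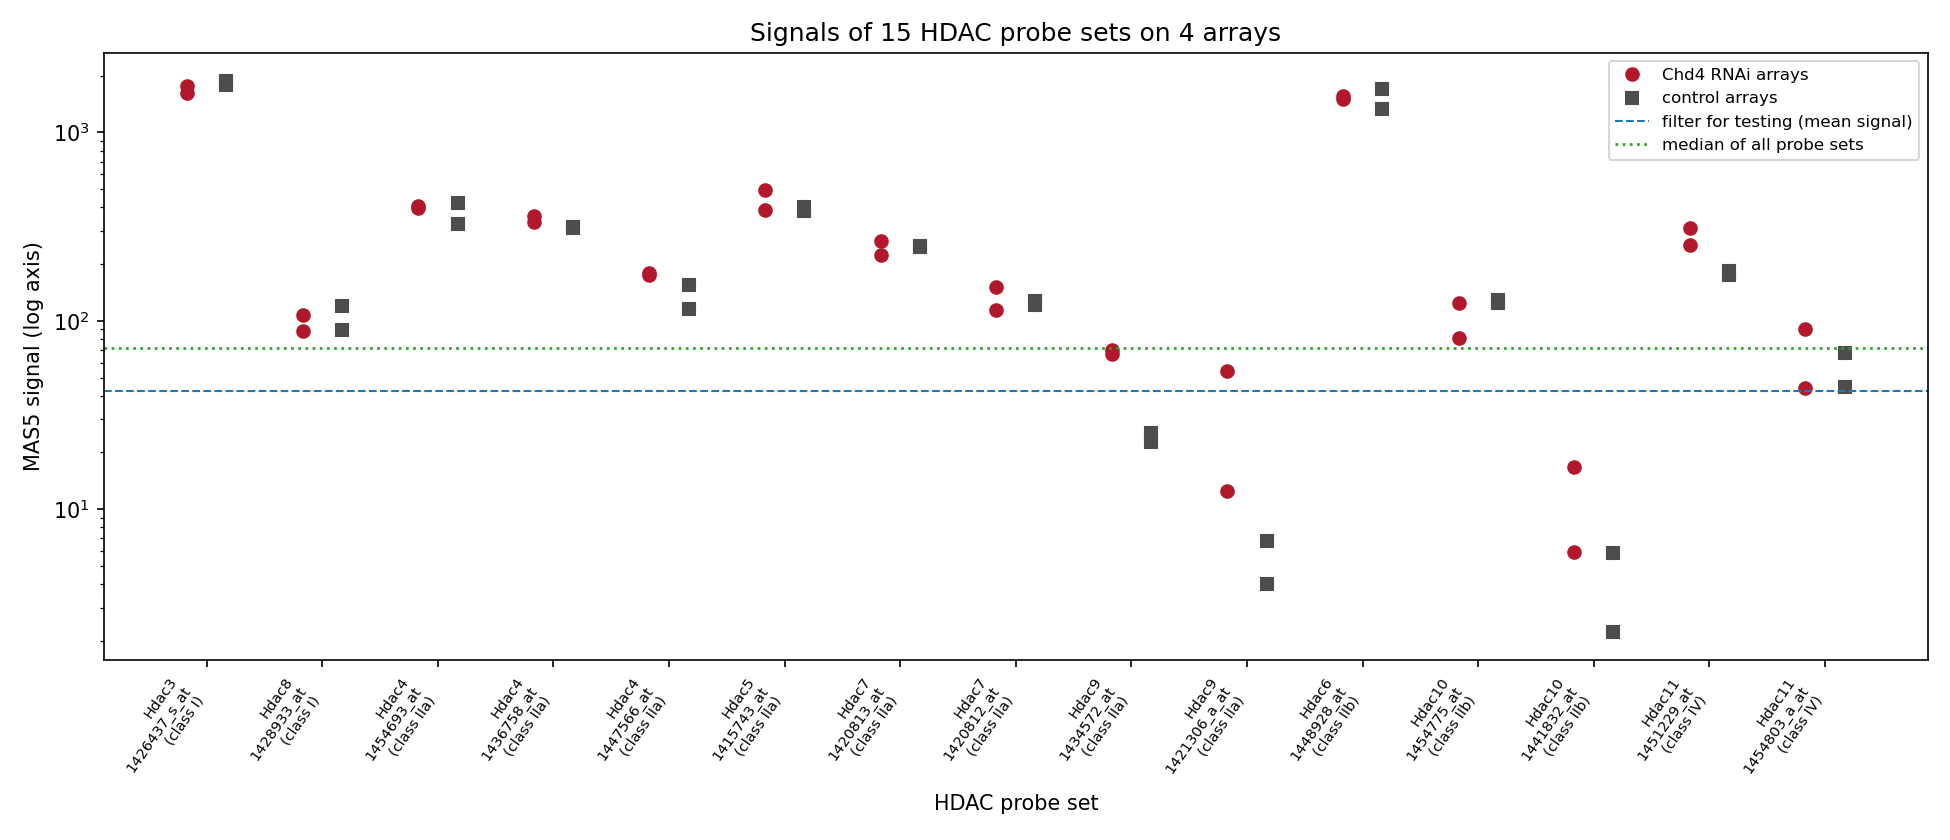
MAS5 signal on a log axis for the 15 HDAC probe sets, ordered by class, with the 2 Chd4 RNAi arrays as circles and the 2 control arrays as squares to their right. The dashed line is the filter of 42.4 on mean signal and the dotted line the median of all probe sets (71.8). The circles stand clear above the squares at Hdac11 probe set 1451229_at and, below the median, at both Hdac9 probe sets. At Hdac10 1441832_at, also below the median, the lower circle (5.95) and the upper square (5.84) almost coincide.

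Start-site windows of 7 members were matched in RefSeq (GRCm38.p6), each of 300 bases with 250 before and 50 after an annotated start; Hdac3 and Hdac10 had no entry. The 3 below are shown because Hdac11 carries the call, Hdac9 is the member with no probe set bright enough to test, and Hdac5 is a brighter class IIa relative of Hdac9. Each is the part of the window upstream of the whole annotated gene, 5′ to 3′ on the strand of the gene. Capitals mark GC boxes (GGGCGG, or CCGCCC on the other strand) and CCAAT boxes (CCAAT, or ATTGG on the other strand), 2 motifs that do not overlap here.
Hdac11, chr6:91156565-91156669, + strand: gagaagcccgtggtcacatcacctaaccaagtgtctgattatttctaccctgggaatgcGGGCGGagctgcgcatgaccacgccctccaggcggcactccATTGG
Hdac9, chr12:34917096-34917345, - strand: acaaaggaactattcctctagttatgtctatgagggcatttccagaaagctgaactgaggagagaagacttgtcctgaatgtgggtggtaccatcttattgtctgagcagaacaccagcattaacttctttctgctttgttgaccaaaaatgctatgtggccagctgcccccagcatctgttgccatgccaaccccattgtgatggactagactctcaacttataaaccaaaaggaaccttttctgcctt
Hdac5, chr11:102230173-102230422, - strand: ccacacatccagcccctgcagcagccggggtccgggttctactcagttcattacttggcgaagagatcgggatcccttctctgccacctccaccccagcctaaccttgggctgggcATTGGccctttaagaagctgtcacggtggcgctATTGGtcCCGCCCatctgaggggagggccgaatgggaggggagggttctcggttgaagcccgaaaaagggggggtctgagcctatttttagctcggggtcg

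The Hdac9 stretch has no capitals, and the full Hdac9 window at that start held 0 CG dinucleotides at 44.0% G and C. The full windows of Hdac11 and Hdac5 held 22 and 18 CG dinucleotides at 66.7% and 60.7% G and C. The median over all 32851 mouse windows was 7 CG dinucleotides, and 23.1% and 29.7% of them held at least as many as Hdac11 and Hdac5. A second Hdac9 window, further inside the gene, held 3 CG dinucleotides and neither motif. The full Hdac11 window held 1 GC box and 1 CCAAT box, that of Hdac5 1 and 2, and those of Hdac6 and Hdac4 5 and 2 each. The Hdac8 window held 2 CCAAT boxes and no GC box, and 1 of 4 Hdac7 windows held a GC box. In CG dinucleotides the Hdac4 window held 32, that of Hdac6 20, that of Hdac8 6, and the Hdac7 windows 5, 31, 35 and 6. Among all windows 35.7% held a GC box, 37.4% a CCAAT box and 12.8% both. These matches describe letters in fixed windows, and no binding was measured.

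Hdac11, the sole class IV enzyme, was read by probe sets 1451229_at and 1454803_a_at. At 1451229_at the signals were 251 and 311 on the Chd4 RNAi arrays and 175 and 185 on the control arrays. Both Chd4 RNAi arrays lay above both controls, with means of 281 ± 42.3 in Chd4 RNAi cells and 180 ± 6.81 in controls (SD, n = 2 each). Hdac11 was thus 1.56-fold higher in Chd4 RNAi cells at this probe set (log2 difference 0.64 ± 0.19 SE, 95% interval 0.23 to 1.05, adjusted p = 0.0430). At 1454803_a_at the signals were 43.8 and 90.3 on the Chd4 RNAi arrays and 67.5 and 44.6 on the control arrays. These groups overlapped, and 3 of the 4 signals were under the median of all probe sets (71.8). The log2 difference of 0.20 ± 0.46 SE did not pass (95% interval -0.82 to 1.21, adjusted p = 0.833), and this interval holds both 0 and the value of the first probe set.

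The Hdac11 call rests on a narrow margin. It ended without Chd4 RNAi replicate 2 (log2 difference 0.48, adjusted p = 0.208), without control replicate 1 (0.60, adjusted p = 0.140) and without control replicate 2 (0.68, adjusted p = 0.0947). It also ended when the signals of both probe sets were averaged (0.42, adjusted p = 0.402). Over 12 alternatives at the probe set the log2 difference stayed between 0.48 and 0.79, and the call held under 4 of them.

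**Figure D2:**
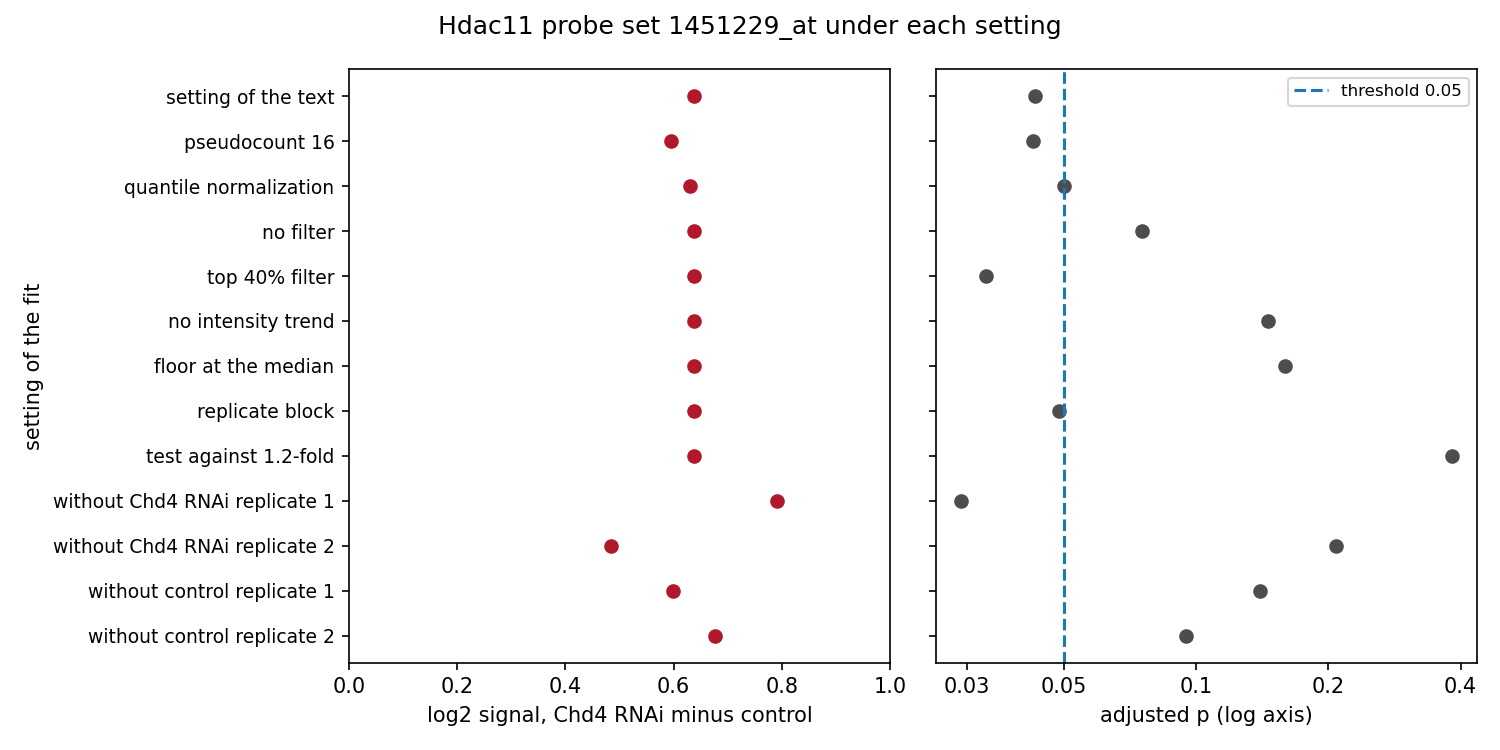
Hdac11 probe set 1451229_at under the setting of the text and the 12 alternatives, with the log2 difference (Chd4 RNAi minus control) on the left and the adjusted p on a log axis on the right. The difference is above 0 throughout, from 0.48 to 0.79, while the adjusted p crosses the dashed threshold of 0.05 and runs from 0.0291 to 0.383.

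Hdac9, a class IIa gene that also gives rise to a form without the catalytic domain, was dim on every array. At 1434572_at the signals were 66.5 and 70.0 on the Chd4 RNAi arrays and 22.8 and 25.5 on the control arrays. At 1421306_a_at they were 54.2 and 12.5 on the Chd4 RNAi arrays and 6.77 and 4.0 on the control arrays. Both Chd4 RNAi arrays lay above both controls at each probe set, tightly at the first and with a wide spread at the second. All 8 signals were under the median of 71.8, so no size of the difference is given. The mean of 1434572_at, 40.6, was just under the filter of 42.4. With no filter, the limma fit over all 45037 probe sets called neither (adjusted p = 0.165 and 0.300). The detection calls of these probe sets were not analysed here.

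The other class IIa genes were brighter and none passed. Hdac5 had signals of 495 and 387 on the Chd4 RNAi arrays and 384 and 402 on the control arrays. The groups overlapped, with 1 Chd4 RNAi array above the other 3 arrays (log2 difference 0.16 ± 0.15 SE, 95% interval -0.17 to 0.48, adjusted p = 0.555).

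Hdac4 was read by 3 probe sets. At 1454693_at the signals were 398 and 405 on the Chd4 RNAi arrays and 424 and 326 on the control arrays. At 1436758_at they were 334 and 359 on the Chd4 RNAi arrays and 313 and 317 on the control arrays. At 1447566_at they were 179 and 176 on the Chd4 RNAi arrays and 154 and 116 on the control arrays. The groups overlapped at the first of these, and at the other two both Chd4 RNAi arrays were above both controls. The log2 differences were 0.11 ± 0.16, 0.14 ± 0.15 and 0.41 ± 0.23 SE, with adjusted p values of 0.694, 0.598 and 0.282, and the mean of the 3 probe sets was also not called (0.22, adjusted p = 0.391). The 95% intervals reached up to 0.45, 0.46 and 0.92, so a rise of such a size is not shown to be absent.

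Hdac7, a class IIa enzyme known from endothelium and thymocytes, had signals of 266 and 224 on the Chd4 RNAi arrays and 249 and 247 on the control arrays at 1420813_at. At 1420812_at they were 151 and 114 on the Chd4 RNAi arrays and 121 and 127 on the control arrays. At both probe sets the controls lay between the Chd4 RNAi arrays in signal. The log2 differences, -0.020 ± 0.17 and 0.082 ± 0.25 SE, were opposite in sign and within their errors (adjusted p = 0.958 and 0.876).

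**Figure D3:**
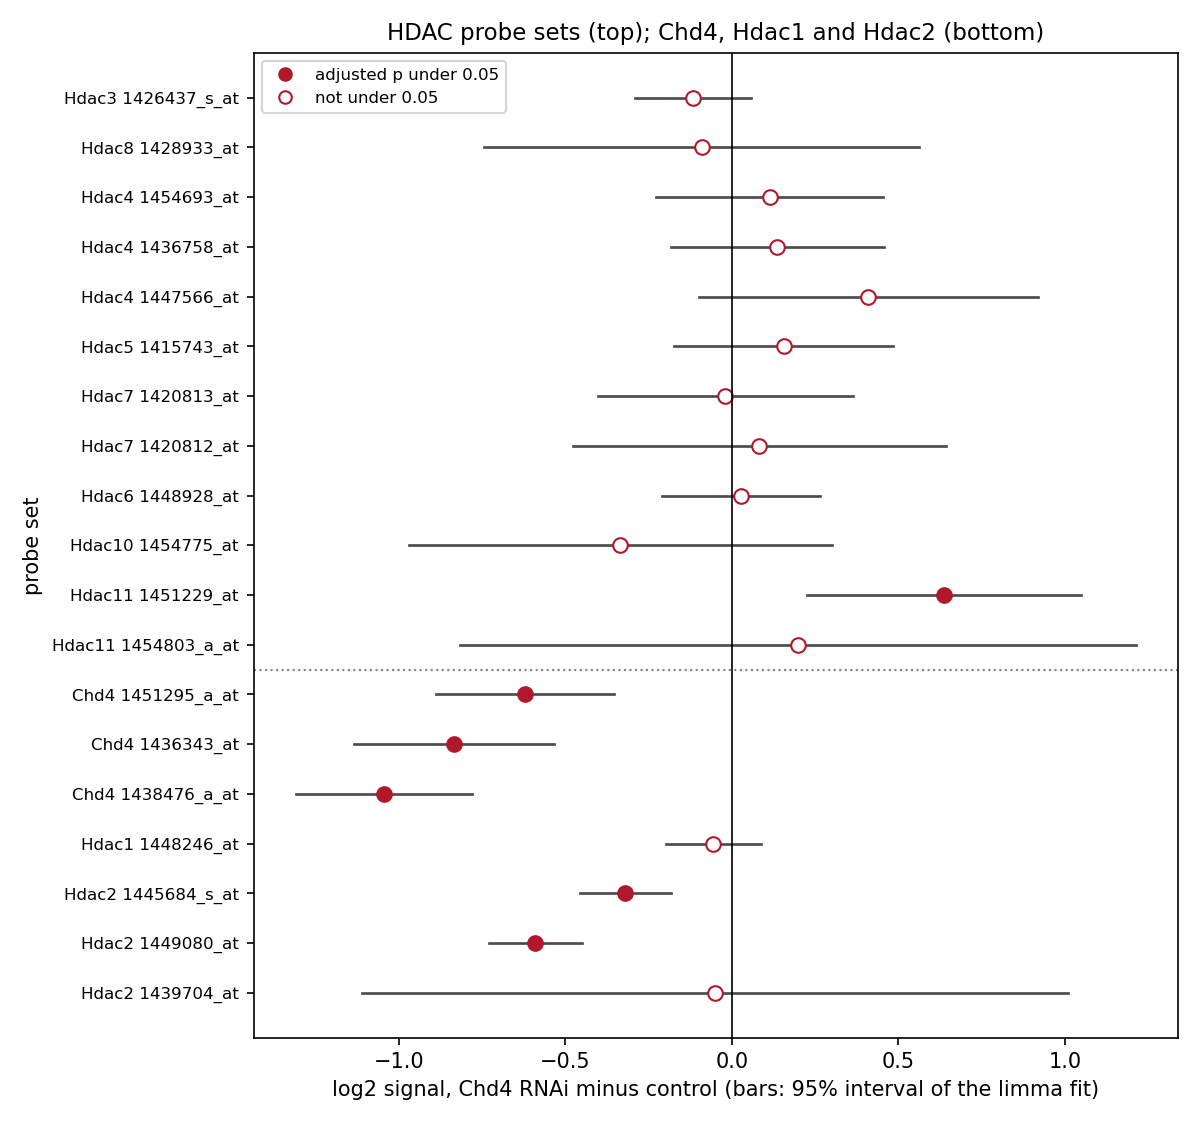
Log2 difference (Chd4 RNAi minus control) with its 95% interval from the limma fit for the 12 tested HDAC probe sets above the dotted line, and for Chd4, Hdac1 and Hdac2 below it; filled points have an adjusted p under 0.05. Hdac11 1451229_at is the filled HDAC point at 0.64, the Hdac3 and Hdac6 intervals are narrow and hold 0, and all 3 Chd4 points lie below 0.

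The class I members were Hdac3 and Hdac8. Hdac3, read by a probe set of the type that can also read related transcripts, had signals of 1627 and 1774 on the Chd4 RNAi arrays and 1797 and 1886 on the control arrays. Both Chd4 RNAi arrays lay below both controls, by little: the log2 difference was -0.12 ± 0.079 SE and did not pass (95% interval -0.29 to 0.059, adjusted p = 0.386). Hdac8 had signals of 88.6 and 107 on the Chd4 RNAi arrays and 121 and 89.1 on the control arrays. These overlapped throughout (log2 difference -0.090 ± 0.30 SE, adjusted p = 0.884), and the 95% interval of -0.74 to 0.56 is wide, so neither a fall nor a rise of a moderate size is shown to be absent. For the nearest relatives outside the set, the NuRD deacetylases, Hdac1 had a log2 difference of -0.055 (adjusted p = 0.645), and Hdac2 fell at 2 of its 3 probe sets, with differences of -0.59 at 1449080_at (adjusted p = 0.000151) and -0.32 at 1445684_s_at (adjusted p = 0.00605). The third Hdac2 probe set, under the median of all probe sets on every array, was at -0.052 ± 0.48 SE (adjusted p = 0.960). Its 95% interval of -1.11 to 1.01 is wide and holds the differences of the other Hdac2 probe sets. Whether Hdac3 or Hdac8 differ from Hdac2 in their response was not tested.

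Of the class IIb genes, Hdac6 had signals of 1558 and 1499 on the Chd4 RNAi arrays and 1697 and 1327 on the control arrays. The Chd4 RNAi arrays lay between the controls, and the log2 difference of 0.026 ± 0.11 SE had a 95% interval of -0.21 to 0.26 (adjusted p = 0.906). That interval and the one of Hdac3 were the narrowest among the members. Hdac10 had signals of 81.3 and 124 on the Chd4 RNAi arrays and 124 and 129 on the control arrays at 1454775_at, with 1 Chd4 RNAi array apart from the other 3 arrays. The log2 difference was -0.33 ± 0.29 SE (95% interval -0.97 to 0.30, adjusted p = 0.502). Its second probe set, 1441832_at, had signals of 16.7 and 5.95 on the Chd4 RNAi arrays and 5.84 and 2.22 on the control arrays, far under the filter. Both Chd4 RNAi arrays lay above both controls, by little for 1 of them, and it was not called with no filter either (adjusted p = 0.604).

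Genes whose products work with the HDACs were followed in 7 lists of 86 gene symbols, among which Wapl and Wapal name the same gene. In all 72 genes were tested, each at its brightest probe set. Of these 15 (20.8%) were called higher, where 10.3% of all 12615 genes tested were, and 5 (6.94%) lower, where 7.79% of all genes were. The lists were chosen with earlier results of these data known, so the larger share called higher is not read as particular to HDAC partners. Lists were described by their counts and medians, and the median log2 difference of all genes tested was 0.014. At an unadjusted p under 0.05, 18.7% of all genes tested were higher and 14.9% lower, the background for the unadjusted counts of each list.

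The partners and kinases of class IIa HDACs gave 8 higher and 0 lower of 25 tested in limma, and 13 and 1 at an unadjusted p under 0.05, with a median log2 difference of 0.15. The count of 8 became 5 without control replicate 1 and 4 without control replicate 2. Mef2d, a MEF2 factor that class IIa enzymes bind, had signals of 726 and 674 on the Chd4 RNAi arrays and 411 and 431 on the control arrays. The groups were well apart and Mef2d rose 1.66-fold (log2 difference 0.73 ± 0.12 SE, adjusted p = 0.00197), with 1 of its 2 other tested probe sets of the same sign. The calcium-dependent kinase gene Camk1d rose 1.76-fold, with signals of 441 and 356 on the Chd4 RNAi arrays and 211 and 241 on the control arrays (adjusted p = 0.00854). The salt-inducible kinase gene Sik3, whose product phosphorylates class IIa HDACs, had signals of 661 and 664 on the Chd4 RNAi arrays and 484 and 451 on the control arrays. Sik3 rose 1.42-fold at this probe set (adjusted p = 0.0135), but 0 of its 2 other tested probe sets had the same sign, and the call ended without control replicate 2 (adjusted p = 0.0723). The MEF2 gene Mef2c was below the filter, at 18.0 and 20.7 on the Chd4 RNAi arrays and 80.4 and 53.9 on the control arrays.

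Of the 6 14-3-3 genes in that list, which encode the proteins that hold phosphorylated class IIa enzymes in the cytoplasm, 4 were called higher. That count was 3 without either Chd4 RNAi array, 2 without control replicate 1, 2 with a replicate block and 1, Ywhaz, without control replicate 2. Ywhaz had the smallest p, with signals of 20175 and 20250 on the Chd4 RNAi arrays and 16620 and 17246 on the control arrays. Ywhaz was 1.19-fold higher (log2 difference 0.26 ± 0.045 SE, adjusted p = 0.00338). Of its 6 other tested probe sets 2 were called higher and 1 lower. Of the 7 other tested probe sets of Ywhaq, also among the 4, 1 was called higher and 1 lower. The shifts of the 14-3-3 genes are small and at bright probe sets. Over the 1605 probe sets with a mean signal of at least 5000, a level chosen after the values were seen, the median log2 difference was 0.050, and 17.3% were called higher. Under quantile normalization that median was 0.0069, and 3 of the 6 14-3-3 genes were called higher.

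**Figure D4:**
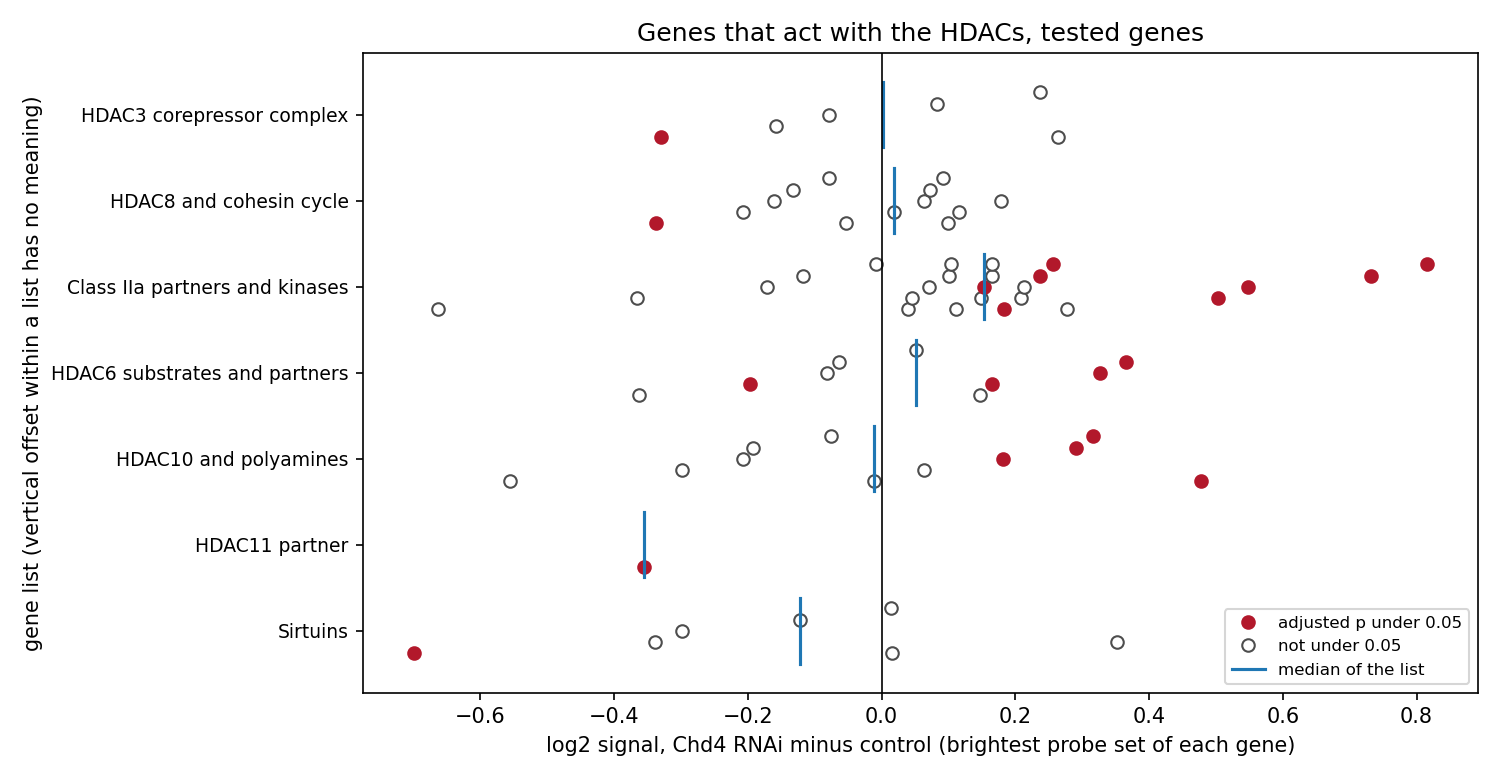
Log2 difference (Chd4 RNAi minus control) of each tested gene in the 7 lists of HDAC partners, substrates and sirtuins; filled points have an adjusted p under 0.05 and the vertical bar is the median of the list. The class IIa list has 8 filled points, all above 0, and the HDAC10 and polyamine list 4, while the HDAC3, HDAC8, HDAC11 and sirtuin lists each have 1, below 0.

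Polyamine genes, listed with the polyamine deacetylase Hdac10, gave 4 higher and 0 lower of 11 tested in limma, and 4 and 2 at an unadjusted p under 0.05, with a median of -0.011. Azin1, which encodes the antizyme inhibitor, had signals of 3257 and 3121 on the Chd4 RNAi arrays and 2275 and 2302 on the control arrays. Azin1 rose 1.39-fold (adjusted p = 0.000843), with both of its other tested probe sets of the same sign and 0 of them called. The spermidine synthase gene Srm was 1.22-fold higher (adjusted p = 0.00813). Antizymes send ornithine decarboxylase to degradation, and the inhibitor blocks them; the antizyme genes Oaz2 and Oaz1 were higher by 1.24-fold (adjusted p = 0.0145) and 1.13-fold (adjusted p = 0.0259). The calls of Srm and Oaz2 ended without control replicate 2 (adjusted p = 0.0685 and 0.0579), and that of Oaz2 also without control replicate 1 (adjusted p = 0.0597). The Oaz1 call ended under quantile normalization (log2 difference 0.11, adjusted p = 0.151), without Chd4 RNAi replicate 1 (adjusted p = 0.0532) and without control replicate 2 (adjusted p = 0.185). Odc1, which encodes ornithine decarboxylase, was at a log2 difference of -0.011 at its brightest probe set (adjusted p = 0.908), but 1 of its 2 other tested probe sets was called lower. Without control replicate 2 the list had 1 gene higher.

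Substrates and partners of Hdac6 gave 3 higher and 1 lower of 9 tested, and 4 and 2 at an unadjusted p under 0.05, with a median of 0.051. The count of 3 became 1 without control replicate 2, and 2 without control replicate 1 or without Chd4 RNAi replicate 1; the count of 1 lower became 0 without any 1 array. The alpha-tubulin gene Tuba4a had signals of 13036 and 12471 on the Chd4 RNAi arrays and 9853 and 9936 on the control arrays. Tuba4a rose 1.29-fold (adjusted p = 0.00069) at this probe set, with 1 of its 2 other tested probe sets of the same sign. The autophagy receptor gene Sqstm1 was called 1.25-fold higher (adjusted p = 0.0122). The chaperone gene Hsp90aa1 was called 1.12-fold higher (adjusted p = 0.0418). The Sqstm1 call ended without control replicate 2 (adjusted p = 0.0865). The Hsp90aa1 call ended under quantile normalization (log2 difference 0.024, adjusted p = 0.685) and without either control array or Chd4 RNAi replicate 1 (adjusted p from 0.0739 to 0.198). Cttn, which encodes the actin regulator cortactin, fell by 0.20 on the log2 scale (adjusted p = 0.0493), and that call ended when any 1 array was left out (adjusted p from 0.0531 to 0.197).

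The HDAC3 and HDAC8 lists held few calls. In the Hdac3 corepressor list 0 of 6 tested genes were called higher and 1 lower, the DNA-binding factor gene Zbtb33, with signals of 756 and 818 on the Chd4 RNAi arrays and 948 and 1030 on the control arrays (log2 difference -0.33, adjusted p = 0.0479). Quantile normalization ended that call (adjusted p = 0.0628), as did leaving out Chd4 RNAi replicate 1 (0.164), control replicate 1 (0.0770) or control replicate 2 (0.249). At an unadjusted p under 0.05 that list had 1 higher and 1 lower in limma. In the same list Tbl1x, a scaffold subunit gene, was at 0.24 (adjusted p = 0.0670), the histone demethylase gene Kdm4a at -0.16 (adjusted p = 0.445) and the corepressor subunit gene Gps2 at 0.26 (adjusted p = 0.566). In the cohesin list 1 of 13 was called lower and 0 higher: the cohesin subunit gene Stag2 had signals of 1945 and 2156 on the Chd4 RNAi arrays and 2462 and 2716 on the control arrays (log2 difference -0.34, adjusted p = 0.0175). The Stag2 call ended without Chd4 RNAi replicate 1 (adjusted p = 0.0746) and without control replicate 2 (adjusted p = 0.122). At an unadjusted p under 0.05 the cohesin list had 0 higher and 3 lower in limma. Smc3, the Hdac8 substrate, was at 0.12 (adjusted p = 0.266). The cohesin subunit gene Rad21 was at -0.16 (adjusted p = 0.0590) where its signal was highest, but 1 of its 2 other tested probe sets was called lower. The cohesin regulator gene Pds5a was at -0.21 (adjusted p = 0.125).

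Shmt2, a serine hydroxymethyltransferase gene whose product is a known substrate of Hdac11, had signals of 2416 and 2556 on the Chd4 RNAi arrays and 3344 and 3024 on the control arrays. Shmt2 fell by 0.36 on the log2 scale (adjusted p = 0.00828) at a probe set of the type that can also read related transcripts. All 3 of its other tested probe sets had the same sign, and 0 of them were called. The call ended without control replicate 1 (log2 difference -0.28, adjusted p = 0.0673).

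The sirtuins, the NAD-dependent class III deacetylases, gave 0 higher and 1 lower of 7 tested in limma, and 0 and 2 at an unadjusted p under 0.05, with a median log2 difference of -0.12. Sirt4, a mitochondrial sirtuin gene, had signals of 196 and 156 on the Chd4 RNAi arrays and 296 and 273 on the control arrays. The groups did not overlap and Sirt4 fell by 0.70 on the log2 scale (adjusted p = 0.0312), a call that ended without control replicate 1 (adjusted p = 0.153), without control replicate 2 (adjusted p = 0.0807) and without Chd4 RNAi replicate 2 (adjusted p = 0.115). The other mitochondrial sirtuin genes, Sirt3 and Sirt5, were at -0.34 (adjusted p = 0.0771) and -0.30 (adjusted p = 0.191), and the nuclear Sirt1 at -0.12 (adjusted p = 0.261).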

How the data were processed

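RNA from 4 samples (2 Chd4 RNAi, 2 control) was hybridised as biotin-labelled cRNA from 6 ug of total RNA to Affymetrix mouse arrays, per the labels' protocols. Each deposited table gives 1 linear intensity per probe set, a MAS5 signal according to the tools named per the submitters' processing notes; the MAS5 version, the scaling target and the scanner are not given in the sources used here. Groups and replicate numbers came from the sample titles. Gene names came from the platform annotation, in which 34945 probe sets had 1 symbol, 932 several and 9160 none; 64 control probe sets were left out. A probe set whose name ends in _s_at or _x_at can read related transcripts.

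Log2 signals without a pseudocount were compared between groups in R 4.3.3 by the moderated two-sided test of limma 3.58.1, its prior variance following mean signal (2 degrees of freedom from the arrays, 9.24 from the prior), with p adjusted by Benjamini-Hochberg over the 27022 probe sets of the top 60% by mean signal. No permutation of 4 arrays can give a p under 0.333. The number of arrays limits the precision. The test was checked on simulated data first. There 67, 67 and 66 of 27022 probe sets were changed by 1.5-fold, 2-fold and 4-fold. It recovered 32.8% of 1.5-fold, 52.2% of 2-fold and 81.8% of 4-fold changes. The main test called 3847 probe sets. The adjustment of p depends on how many probe sets change, so these shares are not the recovery of the main test. A probe set that did not pass is not shown to be unchanged.

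The named genes were every member, Chd4, Hdac1, Hdac2, Pou5f1, Sox2, Nanog and the 4 genes of lowest p in each partner list. Mef2c, Odc1, Ywhaq and the other markers were named after their values were seen. The members and lists were chosen with earlier results of these data known. Labels share replicate numbers, and the main test did not pair the arrays. The deviations from the group means of same-numbered arrays correlated at -0.0019. This gives no sign of a shift common to same-numbered arrays, but cannot show whether those samples were prepared together.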

Additional observations from a re-analysis of the deposited data

How the results depend on the processing

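Alternatives were a pseudocount of 16, quantile normalization, no filter, the top 40% of probe sets, no intensity trend, a floor at the median, a test against a 1.2-fold change, a replicate block, other probe set choices and each array left out. The 1 HDAC probe set called higher, Hdac11 1451229_at, became 0 under quantile normalization (adjusted p = 0.0501), no filter (0.0753), no intensity trend (0.146), the floor (0.160) and the 1.2-fold test (0.383), and 0 to 1 without 1 array. By gene it was 1 at the brightest probe set and 0 over the mean of probe sets. HDAC probe sets called lower were 0 under every alternative. The other 11 tested HDAC probe sets had 0 calls in 128 such fits (lowest adjusted p 0.210), and 7 probe sets changed sign when 1 array was left out. Partner genes called higher, 15, were 0 without the trend, 1 with the floor, 1 in the 1.2-fold test and 6 to 14 without 1 array. Partner genes called lower, 5, were 2 with no filter, 0 without the trend, 0 with the floor, 0 in the 1.2-fold test and 1 to 5 without 1 array. The trend changed most: without it 0 of all probe sets were called, against 3847 with it, 441 with the floor, 851 in the 1.2-fold test and 2430 without control replicate 2. The cause of these changes was not tested. With the replicate block the Hdac11 difference kept its call (0.64, adjusted p = 0.0487), and 3635 probe sets were called in all. Dim signals limit Hdac8, Hdac9, Hdac10 and the second Hdac11 probe set.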
